A study of Mus musculus with 23 samples.

Results

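The 10 genes described here take part in the handling of retinoids and aldehydes: Adh1 and Rdh10 (dehydrogenases of alcohols and retinol), Aldh1a1, Aldh1a2, Aldh1a3 and Aldh1a7 (aldehyde dehydrogenases), Crabp1 and Crabp2 (carriers of retinoic acid inside the cell), Cyp26b1 (an enzyme that breaks retinoic acid down) and Rarb (a nuclear receptor for it). They were the 10 rows of the deposited count table with these symbols, of 23512 features in all, and all 10 were among the 13941 genes that passed the filter on low counts. Aldh1a3 and Aldh1a7 did not pass it when only haploinsufficient and wild-type libraries were fitted. The set was put together because Aldh1a7 and Adh1 had been seen to be higher in hearts deficient in G-protein coupled receptor kinases (GRKs) than in wild-type hearts, with a wide spread between libraries. The differences of Aldh1a7 and Adh1 from wild type are therefore given as a description, without a test. Their SE and intervals against wild type do not allow for this choice and are no evidence of a difference. The other 8 genes came in by name as members of the same pathway.

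RNA was sequenced from C57BL/6 mouse hearts at embryonic day 13.5 in 3 genotype groups. The 7 triple-knockout hearts were GRK2 fl/fl and GRK5 fl/fl with GRK6 KO/KO, and carried Nkx2.5Cre. The 8 haploinsufficient hearts had the same GRK5, GRK6 and Cre alleles but were GRK2 fl/wt. The 8 wild-type hearts were wt/wt at all 3 kinase genes and carried no Cre, so both GRK-deficient groups share the Cre driver and the altered GRK5 and GRK6 alleles that the wild-type group lacks. Nkx2.5Cre recombines in the heart lineage, and cells that never express it keep their floxed alleles, whereas GRK6 is missing from the whole animal. Whether the libraries of a group come from different embryos is not said in the labels. The p-values therefore rest on the variation among these libraries, some of which may be technical.

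Retinoic acid is made from vitamin A in a pair of steps. Retinol is oxidised to retinaldehyde by alcohol and retinol dehydrogenases. Retinaldehyde is then oxidised to retinoic acid by the enzymes of Aldh1a1, Aldh1a2 and Aldh1a3. CRABP proteins bind retinoic acid in the cytoplasm, CYP26 enzymes degrade it, and in the nucleus it acts through retinoic acid receptors that sit on DNA as dimers with RXR. In the embryonic heart retinoic acid patterns the inflow end of the heart tube, and Aldh1a2 in the epicardium, the outer layer of the heart, supplies it to the growing ventricular wall; the same pathway is active in the foregut and lung buds beside the heart.

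Sequences just before the transcription start are shown for 4 genes, since they show how alike the neighbours Aldh1a1 and Aldh1a7 are upstream and which member carries a known retinoic acid response element. They come from the RefSeq promoters of GRCm38.p6, which held an entry for 7 of the 10 genes; Aldh1a3, Rdh10 and Crabp2 had none. Each runs 5′ to 3′ on the gene's own strand over the 120 bases before the start, at chr19:20601848-20601967 (plus strand) for Aldh1a1, chr19:20727557-20727676 (minus) for Aldh1a7, chr14:16575477-16575596 (minus) for Rarb and chr3:138277465-138277584 (plus) for Adh1. Capitals mark the bases that differ between Aldh1a1 and Aldh1a7 and, in Rarb, the response element of the DR5 kind; Adh1 has no marked part and is shown because, with Aldh1a7, it chose the set.
Aldh1a1: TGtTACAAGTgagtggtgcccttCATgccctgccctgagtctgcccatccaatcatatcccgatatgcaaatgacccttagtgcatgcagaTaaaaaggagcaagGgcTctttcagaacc
Aldh1a7: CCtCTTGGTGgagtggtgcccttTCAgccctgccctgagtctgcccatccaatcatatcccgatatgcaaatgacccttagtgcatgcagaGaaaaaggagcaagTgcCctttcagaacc
Rarb: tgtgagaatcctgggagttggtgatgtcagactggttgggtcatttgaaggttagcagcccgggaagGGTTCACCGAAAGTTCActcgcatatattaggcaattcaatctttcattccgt
Adh1: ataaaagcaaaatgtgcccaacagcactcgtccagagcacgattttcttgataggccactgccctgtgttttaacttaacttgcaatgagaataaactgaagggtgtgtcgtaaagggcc

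Aldh1a1 and Aldh1a7 had the same base at 105 of these 120 positions, and of the 15 that differed only 3 lay in the 80 bases nearest the start. The pair are neighbours on chromosome 19, on opposite strands (Aldh1a1 at chr19:20601982-20643462, plus, and Aldh1a7 at chr19:20692953-20727556, minus, mm10), with 49490 bases between them. In the GENCODE transcripts 151 windows of 50 bases, the read length, were identical between them, which is 6.06% of the windows of Aldh1a1 and 7.49% of those of Aldh1a7. How the authors' counting treated reads from those windows is not given in the sources used here, so a small part of the count of either gene is uncertain. The octamer ATGCAAAT, searched on both strands, began at position -56 relative to the start in both genes and at -84 in Aldh1a2. It was found in 1.74% of all 32851 RefSeq promoter windows, which reach from 250 bases before to 50 bases after the start.

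The element in Rarb, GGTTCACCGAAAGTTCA, lay 53 to 37 bases before the start, and a motif of this kind was found in 32 of the 32851 windows (0.0974%) and in no other of the 7 genes. A DR2 element, the other common spacing, was found in 88 windows (0.268%) and in none of the 7 genes. The short box TATAAA began at position -244 in Aldh1a7 and at -139 in Cyp26b1 (13.6% of all windows). Neither match lay in the 120 bases nearest the start. CCAAT was present in Aldh1a1, Aldh1a2 and Aldh1a7 (37.4%). Each motif was searched on both strands. These are matches of letters only. The other genes lie in mm10 at chr3:138277645-138290691 (Adh1, plus), chr1:16105882-16132550 (Rdh10, plus), chr9:71215789-71296243 (Aldh1a2, plus), chr7:66390893-66427477 (Aldh1a3, minus), chr9:54764808-54773109 (Crabp1, plus), chr3:87948693-87953372 (Crabp2, plus), chr6:84571414-84593908 (Cyp26b1, minus) and chr14:16430840-16575210 (Rarb, minus). None of the 10 overlaps another gene's exons in the authors' deposited annotation. In GENCODE M21 exons of Adh1 overlap Gm16559 and exons of Rarb overlap Top2b on the opposite strand, and since the libraries did not keep the strand, reads from such stretches cannot be told apart. Of the 50-base windows of the GENCODE Rarb transcripts, 1833 of 3983 (46.0%) were shared with Top2b or Gm48162 on either strand, the largest share of the 10 genes. For Adh1 the share was 3.26%.

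Total counts per library ran from 6657734 to 13864731 in triple-knockout, from 1757257 to 11025358 in haploinsufficient and from 3838166 to 14050559 in wild-type hearts. A gene with 0 counts could be present at up to 3 counts, which is 0.201 CPM (counts relative to the scaled library size) in the deepest library and 1.74 CPM in the shallowest; such limits cover counting error only. Grk6 exons 3 to 9, which the knockout removes, had 0.0640 ± 0.0891, 0.343 ± 0.315 and 14.5 ± 2.53 CPM (SD) in triple-knockout, haploinsufficient and wild-type hearts, and the Cre transgene 18.5 ± 5.58, 17.7 ± 4.95 and 0.331 ± 0.340 CPM. Over the whole gene, Grk2 (Adrbk1 in the table) had 26.3 to 43.1 CPM in triple-knockout, 21.9 to 57.6 CPM in haploinsufficient and 48.7 to 59.95 CPM in wild-type hearts, so the triple-knockout libraries lay within the haploinsufficient range. Grk5 had 10.9 to 19.7, 8.19 to 15.2 and 20.2 to 27.2 CPM, with both GRK-deficient groups below wild type. Whole-gene counts also take in exons outside a floxed part and cells without Cre. The 8 heart muscle markers summed to 49085 to 91816 CPM in triple-knockout, 40642 to 88204 in haploinsufficient and 56746 to 77811 in wild-type libraries. The 11 epicardial markers in the table summed to 334 to 437, 318 to 552 and 314 to 482 CPM in the same order of groups.

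Libraries also differed in the RNA of marker genes of tissues beside the heart. Whether this RNA came from those tissues was not tested. The 12 lung and foregut markers, of which 9 passed the filter, summed to 5.85, 24.3 and 192 CPM (lowest, median and highest) in triple-knockout, 2.99, 35.3 and 312 CPM in haploinsufficient and 2.88, 5.44 and 62.6 CPM in wild-type libraries. No marker of this list was at 0 throughout a group, but Foxa2 and Cldn6 had a median of 0 CPM in wild-type hearts, against medians of 1.35 and 3.35 CPM in triple-knockout and 0.489 and 4.95 CPM in haploinsufficient hearts. Nkx2-1, of the same list, had medians of 1.43, 3.46 and 2.09 CPM in triple-knockout, haploinsufficient and wild-type hearts. All 9 tested genes of the list had a log2 fold change above 0 in both GRK-deficient groups over wild type, 7 of them at an unadjusted p under 0.05 in each by edgeR. Of all 13941 genes tested, 7360 and 7328 were above 0 in triple-knockout and haploinsufficient hearts, and 10.9% and 17.3% were at such a p. Called by edgeR were 0 of the 9 in triple-knockout and 3, all higher, in haploinsufficient hearts, against 1.18% and 2.28% of all genes. The 7 liver markers summed to 3.82, 11.999 and 19.7 CPM (lowest, median and highest) in triple-knockout, 7.01, 24.4 and 31.0 CPM in haploinsufficient and 7.60, 8.55 and 31.8 CPM in wild-type libraries. The 4 thymus markers summed to 4.43, 8.44 and 18.2 CPM, 4.76, 6.60 and 12.4 CPM, and 3.94, 5.36 and 9.24 CPM in the same order of groups. A score per library, the mean log2 CPM of the lung, foregut, liver and thymus markers relative to the wild-type mean, was above 1.5 in triple-knockout replicates 1, 3 and 7, haploinsufficient replicates 1, 7 and 8, and wild-type replicate 4. These lists and the limit of 1.5 were chosen with results of these data known. Fewer cells of a type and less RNA per cell cannot be told apart in whole-heart RNA.

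Aldh1a7 and Adh1, which chose the set, differed most from wild type in both GRK-deficient groups. Among the other 8 genes, the log2 fold changes over wild type were largest for Crabp2 (1.40), Crabp1 (1.26) and Aldh1a3 (1.19) in triple-knockout and for Aldh1a1 (1.06) in haploinsufficient hearts, and those of Cyp26b1 and Rarb lay between -0.20 and 0.03. Past an edgeR adjusted p of 0.05 there were 0 of these 8 in triple-knockout against wild-type hearts, where 1.18% of all genes tested were (0.488% higher and 0.689% lower). There were also 0 of the 8 in haploinsufficient against wild-type hearts, where 2.28% of all genes were (0.918% higher and 1.36% lower). At an unadjusted p under 0.05 there were 3 of the 8 for triple-knockout and 1 for haploinsufficient hearts, where 10.9% and 17.3% of all genes were. Aldh1a3, among those 3, passed the low-count filter only in fits with the triple-knockout libraries, where its level was highest. Its p is therefore a description only. DESeq2 and limma each called 0 of the 8 for triple-knockout hearts and 1, Aldh1a1, for haploinsufficient hearts. Over the whole table DESeq2 called 291 and 560 genes in these comparisons, and limma on log2(FPKM + 1) 135 and 290. The 2 comparisons share the 8 wild-type libraries.

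**Figure D1:**
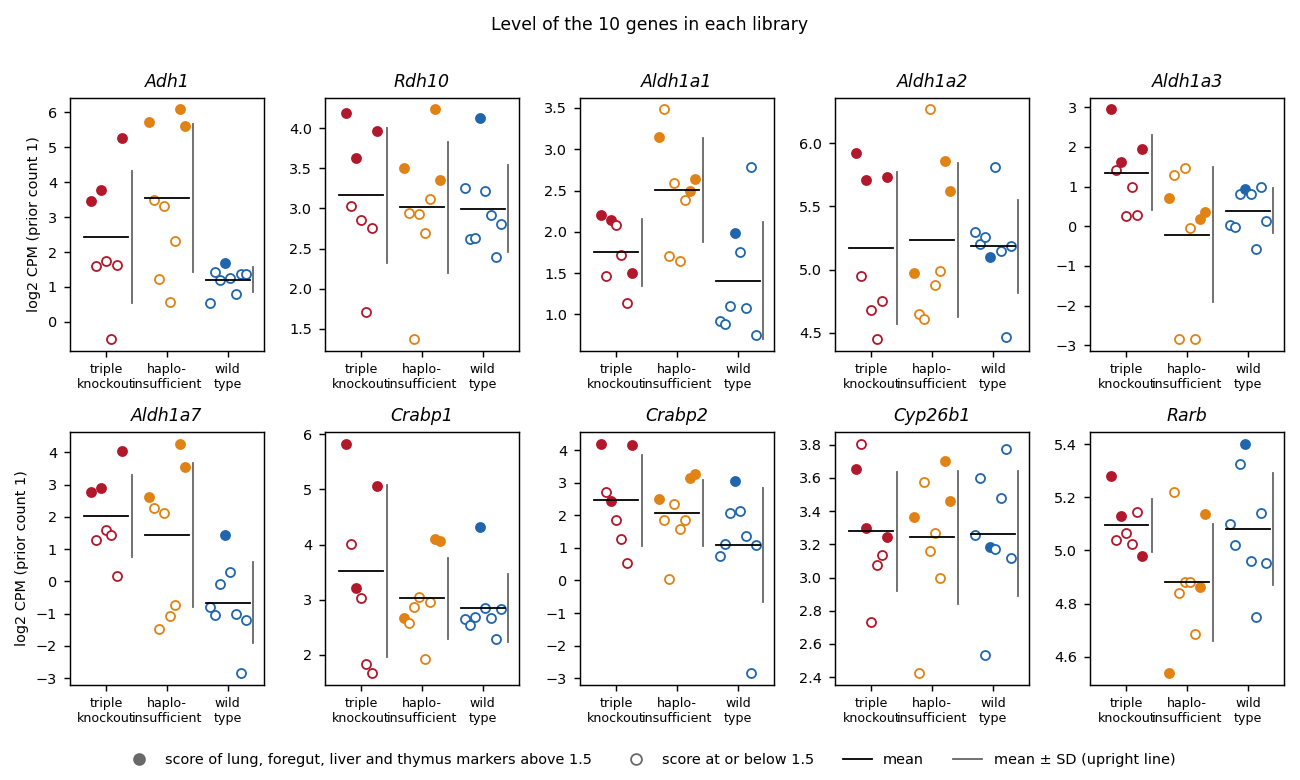
Level of each of the 10 genes in every library as log2 CPM (prior count 1), with groups in the order triple knockout (7), haploinsufficient (8) and wild type (8); filled points are the libraries whose score of other-tissue markers is above 1.5, horizontal lines are means and upright lines mean ± SD. For Adh1 and Aldh1a7 the 3 filled points lie at the top of each GRK-deficient group, whereas for Rarb the values of the 3 groups lie between 4.54 and 5.40.

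Adh1, the class I alcohol dehydrogenase that oxidises ethanol and retinol, had 0.571, 3.18 and 38.1 CPM (lowest, median and highest) in triple-knockout hearts, 1.33, 10.4 and 67.6 CPM in haploinsufficient hearts and 1.31, 2.35 and 3.07 CPM in wild-type hearts. The means were 10.3 ± 13.2 (SD, n = 7), 24.8 ± 26.9 (n = 8) and 2.23 ± 0.552 CPM (n = 8). All 8 wild-type libraries thus lay within a narrow band, which 4 of 7 triple-knockout and 6 of 8 haploinsufficient libraries exceeded, and the lowest triple-knockout library was below it. The log2 fold change was 2.19 ± 0.74 (SE) for triple-knockout and 3.51 ± 0.73 for haploinsufficient against wild-type hearts.

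The 3 highest triple-knockout values of Adh1, 38.1, 13.6 and 10.97 CPM, belonged to replicates 7, 3 and 1, the 3 libraries with a score above 1.5, and the other 4 lay between 0.571 and 3.18 CPM. The 3 highest haploinsufficient values, 67.6, 52.9 and 48.6 CPM, belonged to replicates 7, 1 and 8, again those with a score above 1.5, and the other 5 lay between 1.33 and 11.03 CPM. Without the 7 high-score libraries the log2 fold change of Adh1 was 0.22 for triple-knockout and 1.20 for haploinsufficient hearts. With the score as a term in the fit it was -0.33 and 0.52. The part of the other tissues in the result was not tested beyond these values.

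Rdh10, the main retinol dehydrogenase of the mouse embryo, had 3.14, 8.05 and 18.1 CPM in triple-knockout, 2.45, 8.04 and 18.7 CPM in haploinsufficient and 5.13, 7.14 and 17.4 CPM in wild-type hearts. The 3 groups overlapped over most of their range. Log2 fold changes were 0.29 ± 0.33 (edgeR adjusted p = 0.826) and 0.19 ± 0.33 (0.814) for triple-knockout and haploinsufficient against wild-type hearts. The highest library of each group, triple-knockout replicate 1, haploinsufficient replicate 7 and wild-type replicate 4, was one with a score above 1.5.

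Aldh1a7, the close relative of Aldh1a1, was scarce in wild-type hearts. It had 0.975, 2.88 and 16.1 CPM in triple-knockout, 0.222, 4.44 and 19.2 CPM in haploinsufficient and 0, 0.398 and 2.55 CPM in wild-type libraries. In counts, the 8 wild-type libraries held 38 reads in all, against 341 in the 7 triple-knockout and 323 in the 8 haploinsufficient libraries. Wild-type replicate 7 had 0, which allows up to 0.616 CPM. The means were 5.55 ± 5.23 (SD, n = 7), 5.80 ± 6.58 (n = 8) and 0.734 ± 0.807 CPM (n = 8). In each GRK-deficient group 5 libraries exceeded the highest wild-type value, and the groups overlapped. The log2 fold change was 3.01 ± 0.76 (SE) for triple-knockout and 3.13 ± 0.77 for haploinsufficient hearts.

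As for Adh1, the 3 high-score libraries held the highest Aldh1a7 values of their group, 16.1, 7.34 and 6.62 CPM in triple-knockout replicates 7, 3 and 1 and 19.2, 11.4 and 5.96 CPM in haploinsufficient replicates 7, 8 and 1. Wild-type replicate 4, with 2.55 CPM, was the highest of its group. Among the remaining libraries Aldh1a7 had 0.975 to 2.88 CPM in 4 triple-knockout, 0.222 to 4.65 CPM in 5 haploinsufficient and 0 to 1.08 CPM in 7 wild-type libraries. Without the high-score libraries the log2 fold change was 2.22 and 1.39 for triple-knockout and haploinsufficient hearts, and with the score as a term 1.07 and 0.50.

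The size of these differences moved with single libraries and with the tool. Over the 23 fits that each left 1 library out, the log2 fold change of Aldh1a7 was 2.44 to 3.48 for triple-knockout and 2.50 to 3.57 for haploinsufficient hearts, and that of Adh1 1.31 to 2.40 and 3.09 to 3.71. The 1.31 came from the fit without triple-knockout replicate 7. By limma on log2(FPKM + 1) of the deposited FPKM, a scale that understates the change of low genes, Aldh1a7 was at 1.23 and 1.20 and Adh1 at 1.11 and 1.99 for triple-knockout and haploinsufficient hearts.

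Aldh1a1, which oxidises retinaldehyde and other aldehydes, had 2.06, 3.14 and 4.48 CPM in triple-knockout, 3.00, 5.68 and 11.03 CPM in haploinsufficient and 1.55, 1.99 and 6.78 CPM in wild-type hearts. Haploinsufficient libraries lay higher as a group, with 2 of 8 above the highest wild-type library, but the groups overlapped. Its difference was 1.06 ± 0.32 on the log2 scale for haploinsufficient hearts (edgeR adjusted p = 0.0828) and 0.26 ± 0.33 for triple-knockout hearts (0.852). The haploinsufficient difference was on either side of the threshold depending on the tool and on single libraries: the adjusted p was 0.0230 by DESeq2 and 0.0472 by limma on the deposited FPKM, 0.0128 by edgeR without wild-type replicate 7 (log2 fold change 1.37) and 0.0397 without haploinsufficient replicate 3 (1.15).

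The values of Aldh1a1 followed the score less closely than those of its neighbour. Its highest haploinsufficient value came from replicate 2, with 19 counts in the shallowest library, and its highest wild-type value from replicate 7, the library with no count of Aldh1a7 and the lowest score. Without the high-score libraries the haploinsufficient log2 fold change was 1.04 (adjusted p = 0.300), and with the score as a term 0.86 (0.301).

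Aldh1a2, the main retinaldehyde dehydrogenase of the early embryo, was among the most abundant of the 10 genes, with 21.7, 30.7 and 60.4 CPM in triple-knockout, 24.3, 31.4 and 76.9 CPM in haploinsufficient and 21.98, 36.5 and 56.2 CPM in wild-type hearts. Its log2 fold changes were 0.04 ± 0.24 (edgeR adjusted p = 0.976) and 0.14 ± 0.24 (0.814) for triple-knockout and haploinsufficient against wild-type hearts, with 95% intervals of -0.45 to 0.53 and -0.35 to 0.62. Within the triple-knockout group the values split: replicates 1, 7 and 3 had 60.4, 53.1 and 52.2 CPM, and the other 4 had 21.7 to 30.7 CPM. These 3 are the high-score libraries, and without the high-score libraries of all groups the log2 fold change was -0.50 for triple-knockout hearts (adjusted p = 0.804). The epicardial markers Wt1 and Tbx18 had medians of 24.2 and 66.5 CPM in triple-knockout, 22.5 and 64.0 in haploinsufficient and 23.3 and 70.6 in wild-type hearts.

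Aldh1a3, a retinaldehyde dehydrogenase best known from the eye and nose, was close to the limit of detection. It passed the low-count filter only in fits with the triple-knockout libraries. It had 1.06, 2.55 and 7.56 CPM in triple-knockout, 0, 1.07 and 2.61 CPM in haploinsufficient and 0.537, 1.29 and 1.85 CPM in wild-type hearts. Triple-knockout libraries exceeded the highest wild-type value in 5 of 7 cases, with the highest in replicate 1. Haploinsufficient replicates 3 and 6 had 0 counts, which allows up to 0.667 and 0.691 CPM. Log2 fold changes were 1.19 ± 0.46 for triple-knockout hearts (edgeR adjusted p = 0.276) and -0.23 ± 0.51 for haploinsufficient hearts (0.861). Without the high-score libraries it was 0.52 for triple-knockout hearts.

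Crabp1 and Crabp2 carry retinoic acid in the cytoplasm. Crabp1 had 3.03, 9.14 and 56.8 CPM in triple-knockout, 3.66, 7.36 and 17.1 CPM in haploinsufficient and 4.72, 6.25 and 19.9 CPM in wild-type hearts. Triple-knockout replicates 1 and 7, at 56.8 and 33.4 CPM, stood above every wild-type library, whereas replicates 5 and 6 stood below every one. Log2 fold changes were 1.26 ± 0.46 for triple-knockout (edgeR adjusted p = 0.249) and 0.36 ± 0.48 for haploinsufficient hearts (0.743). Without triple-knockout replicate 1 the triple-knockout value was 0.66, and without the high-score libraries 0.28.

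Crabp2, which hands retinoic acid to its nuclear receptors, had 1.30, 5.26 and 18.3 CPM in triple-knockout, 0.890, 4.19 and 9.52 CPM in haploinsufficient and 0, 2.23 and 8.17 CPM in wild-type hearts. Triple-knockout replicates 1 and 7 (18.3 and 17.7 CPM) and haploinsufficient replicates 8 and 7 (9.52 and 8.72 CPM) exceeded the highest wild-type library, replicate 4. The 0 in wild-type replicate 7 allows up to 0.616 CPM. For Crabp2 the log2 fold change was 1.40 ± 0.53 for triple-knockout (edgeR adjusted p = 0.269) and 0.81 ± 0.54 for haploinsufficient hearts (0.461). Without the high-score libraries the values were 0.50 and 0.27. Without triple-knockout replicate 7 the triple-knockout value was 0.94.

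Cyp26b1, which oxidises retinoic acid to inactive products, had 6.52, 9.35 and 13.9 CPM in triple-knockout, 5.23, 9.84 and 12.9 CPM in haploinsufficient and 5.65, 9.18 and 13.6 CPM in wild-type hearts. Its log2 fold change was 0.03 ± 0.19 in both comparisons with wild type (edgeR adjusted p = 0.982 for triple-knockout and 0.963 for haploinsufficient hearts). The 95% intervals, -0.36 to 0.41 for both, leave room for a change of up to about that size.

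Rarb, the receptor gene with the response element shown above, had 31.4, 33.3 and 38.7 CPM in triple-knockout, 23.1, 29.1 and 37.2 CPM in haploinsufficient and 26.7, 33.3 and 42.2 CPM in wild-type hearts. The log2 fold change was 0.02 ± 0.10 for triple-knockout hearts (edgeR adjusted p = 0.970, 95% interval -0.18 to 0.22) and -0.20 ± 0.10 for haploinsufficient hearts (0.312, -0.40 to 0.01). Among the 10 genes its libraries agreed most closely: the SD of log2 CPM was 0.10 in triple-knockout, 0.22 in haploinsufficient and 0.21 in wild-type hearts, against 0.25, 0.35 and 0.25 for the median gene. In the triple-knockout group only 4.45% of all genes tested had an SD as low. Of its GENCODE windows 46.0% were shared with Top2b or Gm48162, but the share in the exons of the authors' annotation was not measured. The count of Rarb may take in reads of another gene, which was not tested.

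Over the 10 genes, the log2 fold change was above 0 in 10 for triple-knockout and in 8 for haploinsufficient against wild-type hearts, with medians of 0.74 and 0.27, where the median of all genes tested was 0.01 in both. Aldh1a7 and Adh1 entered the set for being higher, so these counts and medians partly follow from the choice. Among the other 8 genes the log2 fold changes ran from 0.02 (Rarb) to 1.40 (Crabp2) for triple-knockout hearts. For haploinsufficient hearts they ran from -0.23 (Aldh1a3) to 1.06 (Aldh1a1). In no comparison did the libraries of the 2 groups lie apart without overlap for any of the 10 genes. Among all genes this was so for 0.395% (higher) and 0.531% (lower) in triple-knockout and 0.179% and 0.28% in haploinsufficient against wild-type hearts, and for 0.0215% and 0.0574% in triple-knockout against haploinsufficient hearts.

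**Figure D2:**
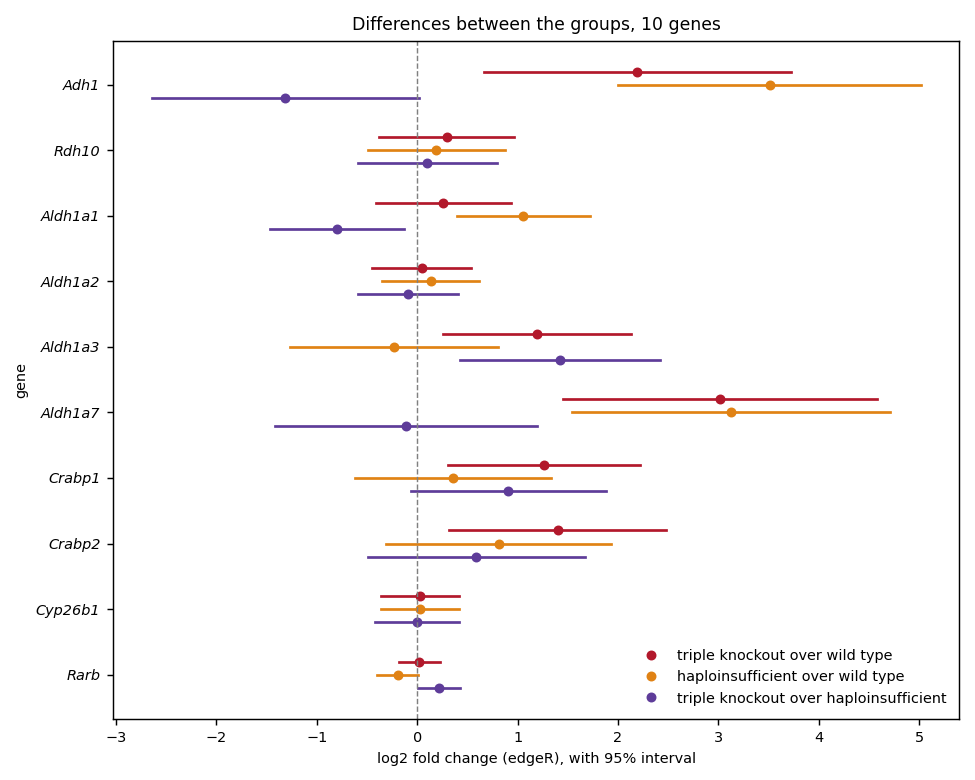
Log2 fold changes of the 10 genes from edgeR (points) with 95% intervals (lines) for triple knockout over wild type, haploinsufficient over wild type and triple knockout over haploinsufficient. Aldh1a7 and Adh1, which were chosen for their difference from wild type, stand far to the right for both GRK-deficient groups (log2 fold changes 2.19 to 3.51), while Rdh10, Aldh1a2, Cyp26b1 and Rarb lie within 0.30 of 0 in all comparisons. The intervals of Aldh1a7 and Adh1 against wild type do not allow for that choice and are a description only.

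The triple-knockout and haploinsufficient hearts, which differ by label in the second GRK2 allele alone, were compared directly for all 10 genes, since this contrast did not choose them. None of the 10 was called by edgeR, DESeq2 or limma, but 1 of them had no adjusted p from DESeq2 and could not be called by it. Of all genes tested 0.395% were called by edgeR (0.0789% higher and 0.316% lower). DESeq2 called 270 genes over the whole table, and limma 0, so limma's result says nothing about the 10 in particular. With each tool 3 had an unadjusted p under 0.05, where 15.4% of all genes did by edgeR. Those 3 by edgeR were Aldh1a3, higher in triple-knockout hearts by 1.43 ± 0.49 on the log2 scale (adjusted p = 0.168), Aldh1a1, at -0.80 ± 0.32 (0.241), and Rarb, at 0.22 ± 0.10 (0.308). Aldh1a3 and Aldh1a7 passed the filter only in fits with the triple-knockout libraries, so their values here are a description. Adh1 was at -1.32 ± 0.65 (0.329), with a 95% interval of -2.65 to 0.01, and Aldh1a7 at -0.11 ± 0.64 (0.954), with an interval of -1.42 to 1.19. The wide intervals of Adh1 and Aldh1a7 do not show that the 2 groups were alike. Crabp1 was at 0.91 ± 0.47 (0.360) and Crabp2 at 0.59 ± 0.53 (0.620).

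Library IDs fall into 1 to 12 and 19 to 30, with libraries of every group in both, and the difference from wild type was compared between these sets. Adh1 had log2 fold changes of 1.99 and 2.35 for triple-knockout and 3.10 and 3.83 for haploinsufficient hearts in the lower and the higher IDs. Aldh1a7 had 2.47 and 3.55 for triple-knockout and 1.90 and 4.09 for haploinsufficient hearts. For Crabp1 the haploinsufficient values were -0.42 and 0.85, and for Crabp2 -0.09 and 1.45. None of the 10 genes was called by edgeR or DESeq2 for a difference between the sets. At an unadjusted p under 0.05 there was 1, Cyp26b1 in triple-knockout hearts (0.43 and -0.34, edgeR adjusted p = 0.628), and none in haploinsufficient hearts. Of all genes tested 0.143% were called for triple-knockout and 0% for haploinsufficient hearts by edgeR, with 7.58% and 7.31% at an unadjusted p under 0.05. DESeq2 called 63 and 2 genes.

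The spread between libraries of a group differed among the 10 genes. A wide spread of Aldh1a7 and Adh1 was part of what chose the set, so theirs is a description only. In triple-knockout hearts the SD of log2 CPM of Adh1 (1.88), Crabp1 (1.56), Crabp2 (1.38) and Aldh1a7 (1.28) was at the 99.8th, 99.5th, 99.2nd and 98.9th percentile of all genes tested. In haploinsufficient hearts Aldh1a7 (2.22) and Adh1 (2.11) were at the 99.7th and 99.4th percentile, and in wild-type hearts Adh1 (0.37) was at the 70.6th. Crabp2 (1.75), with 0 counts in replicate 7, was at the 99.7th in wild-type hearts. At the other end Rarb was at the 4.45th, 18.8th and 37.4th percentile in triple-knockout, haploinsufficient and wild-type hearts. Cyp26b1 was above the median gene, at the 72.2nd, 57.5th and 72.0th percentile in the same order.

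**Figure D3:**
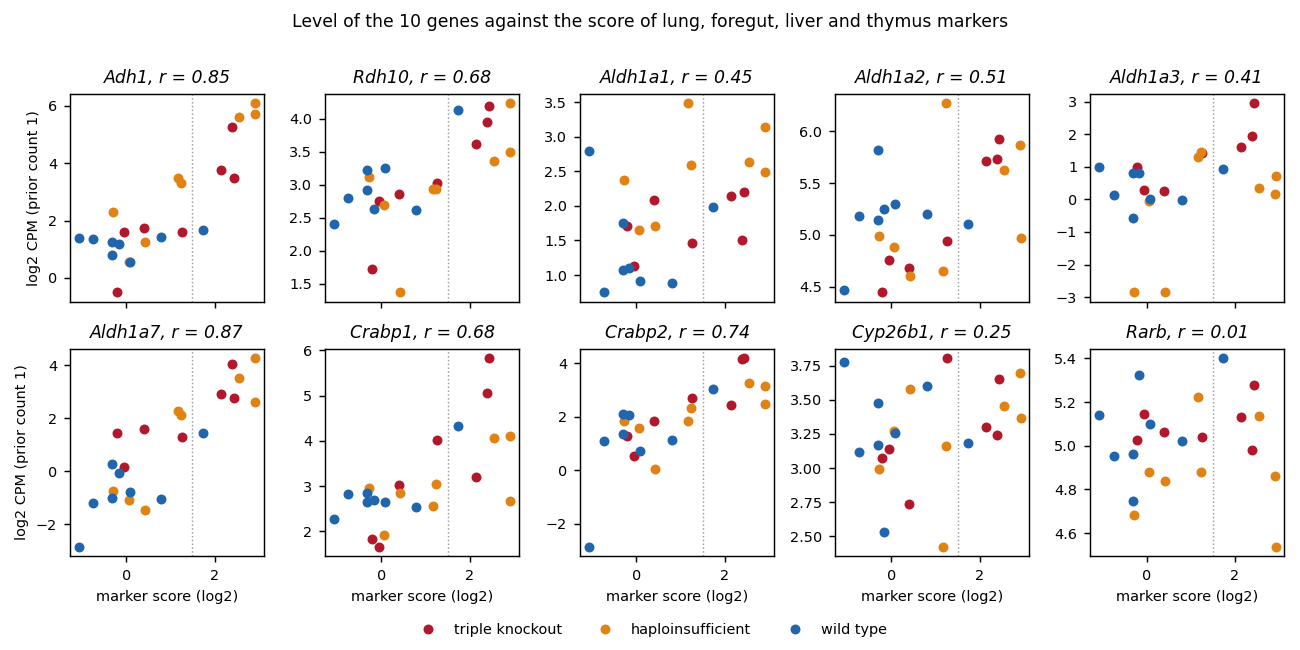
Log2 CPM (prior count 1) of each of the 10 genes against the score of other-tissue markers (log2, relative to the wild-type mean) in 23 libraries, coloured by group, with the Pearson correlation above each panel and a dotted line at a score of 1.5. Adh1 (0.85) and Aldh1a7 (0.87) run along the score, and Rarb (0.01) does not.

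Across the 23 libraries the level of several of the 10 genes ran with the score. Pearson's r with the score was 0.87 for Aldh1a7, 0.85 for Adh1, 0.74 for Crabp2, 0.68 for Rdh10 and Crabp1, 0.51 for Aldh1a2, 0.45 for Aldh1a1, 0.41 for Aldh1a3, 0.25 for Cyp26b1 and 0.01 for Rarb. Among all genes tested the median r was 0.01, and 1.54% of genes had an r above 0.7. Within the 7 triple-knockout libraries r was 0.89 for Adh1, 0.85 for Aldh1a7, 0.97 for Aldh1a2, 0.93 for Rdh10, 0.91 for Crabp2 and 0.88 for Crabp1. Within the 8 haploinsufficient libraries it was 0.94 for Adh1, 0.90 for Aldh1a7 and 0.45 for Aldh1a2. Rdh10, Crabp2 and Crabp1 were at 0.66, 0.73 and 0.62 there. In the 8 wild-type libraries r was 0.33, 0.74, 0.20, 0.73, 0.65 and 0.77 for these genes in the same order. These correlations describe libraries that share groups, depth and the tissue dissected, and no p is attached to them.

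The fold changes with and without the score can be set side by side. Leaving out the 7 high-score libraries lowered the triple-knockout log2 fold change of Crabp1 to 0.28, against 1.26 with all libraries. That of Adh1 fell to 0.22, against 2.19, and that of Aldh1a7 to 2.22, against 3.01. The haploinsufficient value of Aldh1a7 also fell, as given above. For haploinsufficient hearts Aldh1a1 was at 1.04, against 1.06, whereas Adh1 was at 1.20, against 3.51. Called genes over the whole table numbered 70 for triple-knockout and 111 for haploinsufficient hearts without these libraries, against 164 and 318 with them. With the score as a term 1 term more was fitted to the same libraries, and the score itself differed between groups. That fit gave Aldh1a7 a log2 fold change of 1.07 for triple-knockout and 0.50 for haploinsufficient hearts.

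**Figure D4:**
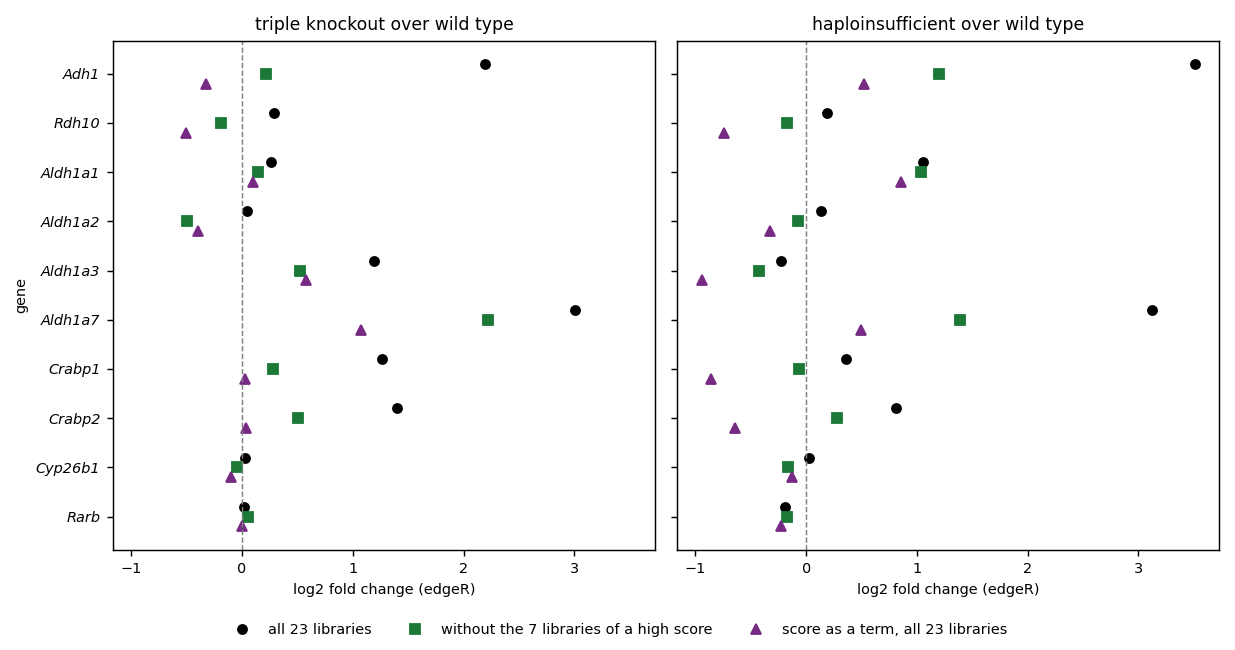
Log2 fold changes (edgeR) of the 10 genes over wild type for triple knockout (left) and haploinsufficient hearts (right), from all 23 libraries (circles), without the 7 libraries of a high marker score (squares) and with the score as a term (triangles). The circles of Adh1 and Aldh1a7 lie furthest to the right, and their squares and triangles are closer to 0.

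Levels of different genes can be compared per length, as CPM per kilobase of exon. In triple-knockout hearts the means ran from Crabp1 (25.04 ± 26.8, SD) and Aldh1a2 (17.1 ± 7.06) over Rarb (12.3 ± 0.876), Crabp2 (8.69 ± 7.95), Adh1 (7.73 ± 9.86), Rdh10 (4.40 ± 2.33), Aldh1a7 (2.69 ± 2.54), Cyp26b1 (2.03 ± 0.519) and Aldh1a1 (1.64 ± 0.466) to Aldh1a3 (0.870 ± 0.659). Every neighbouring pair in this order overlapped in range. In haploinsufficient hearts Adh1 (18.6 ± 20.2) and Aldh1a2 (18.0 ± 8.36) led, and in wild-type hearts Aldh1a2 (16.5 ± 4.13), Rarb (12.3 ± 1.81) and Crabp1 (10.6 ± 6.65). Adh1 was at 1.67 ± 0.414 and Aldh1a7 at 0.356 ± 0.392 in wild-type hearts, the seventh and the last place. Neighbouring genes whose ranges did not overlap were Cyp26b1 above Aldh1a3 in haploinsufficient and Aldh1a1 above Aldh1a3 in wild-type hearts.

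**Figure D5:**
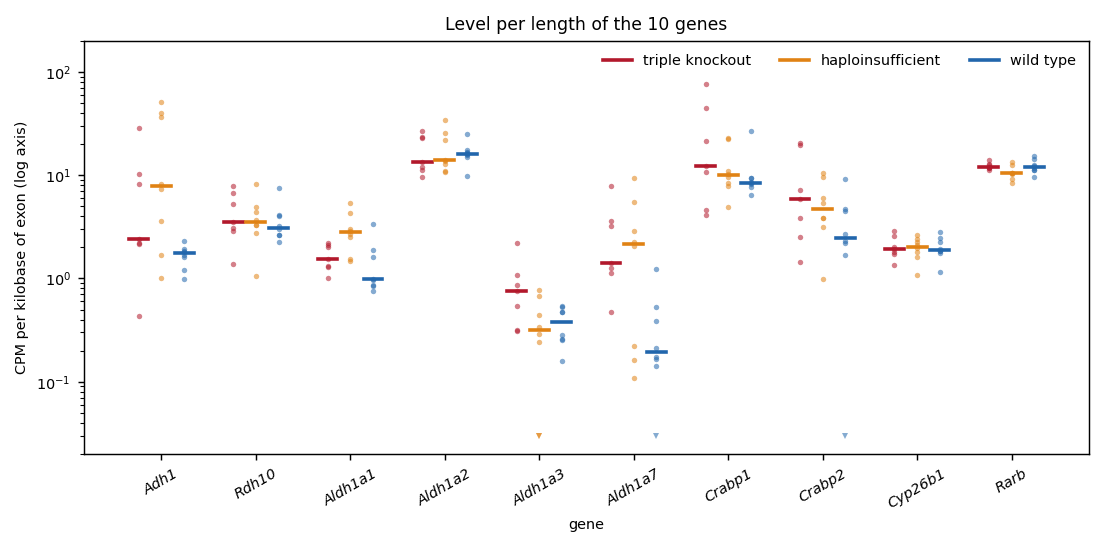
CPM per kilobase of exon (log axis) of the 10 genes in each library (points) with the group median (bars), in the order triple knockout, haploinsufficient and wild type; triangles at the foot are libraries with 0 counts. Aldh1a2 and Rarb lie near 10 or above in most libraries of every group, and Aldh1a7 and Aldh1a3 are the lowest in wild-type hearts.

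By Spearman's rho of log2 CPM over the 23 libraries, among 12000 genes that averaged 1 log2 CPM or more, the genes most like Aldh1a7 were Epcam (0.93) and Tbx4 (0.86), both on the lung and foregut list, and Crabp2 (0.84). Those most like Adh1 were Rnf43 (0.86), Bzrap1 (0.86) and the signalling ligand Wnt7b (0.84). Adamts10 was the closest to both Rdh10 and Crabp2 (0.90 each), and Nfatc4 was among the 3 closest to both (0.87 and 0.88). Aldh1a2 was closest to Spry1 (0.89), Magi2 (0.84) and Gas1 (0.80), and Crabp1 to Rnf122 (0.89), the smooth muscle myosin gene Myh11 (0.86) and Mirg (0.82). The closest gene to Aldh1a1 was Ncf4 (0.83), to Aldh1a3 Figf (0.80), to Cyp26b1 Rexo1 (0.86) and to Rarb Slc2a13 (0.78). Among the 10 genes themselves the closest pairs were Aldh1a7 with Crabp2 (0.84), Crabp1 with Crabp2 (0.81), Rdh10 with Crabp2 (0.81) and Aldh1a7 with Adh1 (0.78).

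Of the 85 other genes listed for the pathway, 55 were tested, and edgeR called none of them in any of the 3 comparisons. At an unadjusted p under 0.05 there were 8 for triple-knockout and 14 for haploinsufficient against wild-type hearts and 6 for triple-knockout against haploinsufficient hearts. Of all genes tested 10.9%, 17.3% and 15.4% were at such a p, and 1.18%, 2.28% and 0.395% were called, in these comparisons. The tested genes were 4 of 13 for retinol uptake, transport and storage, 9 of 15 other retinol and retinal oxidoreductases, 7 of 8 for breakdown, receptors and carriers, 15 of 22 retinoic acid responsive genes and 20 of 27 for other aldehyde and alcohol metabolism. Their median log2 fold change was 0.07 for triple-knockout and 0.05 for haploinsufficient against wild-type hearts, where the median of all genes tested was 0.01.

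The pathway gene with the smallest p was Tgm2, a transglutaminase gene induced by retinoic acid. It had 473, 627 and 850 CPM in triple-knockout, 515, 665 and 757 CPM in haploinsufficient and 759, 858 and 1060 CPM in wild-type hearts. All haploinsufficient libraries lay below all wild-type libraries, though narrowly, with 757 CPM the highest against 759 CPM the lowest. Of all genes tested, 0.28% lay apart and lower in this comparison. The triple-knockout libraries overlapped with wild type. The log2 fold change of Tgm2 was -0.45 ± 0.12 for triple-knockout (edgeR adjusted p = 0.0749) and -0.41 ± 0.12 for haploinsufficient hearts (0.0624). DESeq2 called it lower in both GRK-deficient groups, and limma on the deposited FPKM in haploinsufficient hearts. Over the whole table DESeq2 called 291 and 560 genes in these comparisons, and limma 290 in haploinsufficient hearts. The r of Tgm2 with the score was -0.88 in triple-knockout, -0.66 in haploinsufficient and -0.10 in wild-type hearts, and the part of the other tissues in its difference was not tested.

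Of the other genes that the naming rule picked, Stra6, the membrane receptor for retinol-binding protein, had 0.217, 2.71 and 12.6 CPM in triple-knockout, 0, 1.49 and 9.08 CPM in haploinsufficient and 0.513, 0.761 and 7.15 CPM in wild-type hearts. Its log2 fold change was 1.84 ± 0.76 for triple-knockout (edgeR adjusted p = 0.326) and 1.45 ± 0.78 for haploinsufficient hearts (0.345), and its r with the score within these groups was 0.94 and 0.77. The homeobox gene Meis1 was at 0.35 ± 0.12 (0.210) in triple-knockout and 0.33 ± 0.12 (0.141) in haploinsufficient hearts, and its r with the score was 0.94 and 0.73. The receptor genes Rarg and Rxra were at 0.53 ± 0.21 (0.195) and 0.16 ± 0.08 (0.260) in haploinsufficient hearts, and the r of Rarg with the score was 0.89 in triple-knockout and 0.93 in haploinsufficient hearts.

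Among the oxidoreductases, Rdh1 was at -0.12 ± 0.19 (edgeR adjusted p = 0.894) in triple-knockout and -0.55 ± 0.20 (0.145) in haploinsufficient hearts, and Dhrs4 at 0.06 ± 0.14 (0.931) and 0.36 ± 0.14 (0.174). The mitochondrial aldehyde dehydrogenase gene Aldh2 had 55.1, 71.2 and 86.5 CPM in triple-knockout, 47.5, 79.3 and 118 CPM in haploinsufficient and 49.7, 61.0 and 71.4 CPM in wild-type hearts, with log2 fold changes of 0.22 ± 0.14 (0.637) and 0.33 ± 0.14 (0.219). Aldh6a1, an aldehyde dehydrogenase of valine breakdown, was at 0.30 ± 0.12 (0.298) and 0.08 ± 0.12 (0.778). All of these groups overlapped in range.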

How the data were processed

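Whole-heart RNA of 23 libraries was used. The counts deposited by the authors are raw reads per gene. The submitters' processing notes name TopHat2 (version 2.0.10), Bowtie2 and HTSeq, and mm10 as the build. FPKM values deposited by the authors, for which the notes name Cufflinks (version 2.1), served an alternative only. Per the labels' protocols, ribosomal RNA was depleted and single ends of 50 bases were read without keeping the strand.

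Counts were tested with edgeR (version 4.0.16, R version 4.3.3) by its quasi-likelihood test. The fit held all 23 libraries, the group and the set of library IDs (1 to 12 or 19 to 30), with TMM scaling and the edgeR filter (minimum count 10, minimum total 15). Two-sided p-values were adjusted (Benjamini-Hochberg) over all 13941 genes tested in each comparison, with a threshold of 0.05. The targeted genes and Cre were left out of the genes tested. The common biological coefficient of variation was 0.208. Log2 CPM used a prior count of 1.

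The members, gene lists, marker lists and score were chosen with earlier results of these data known. The text names the 10 members, per pathway list up to 2 genes with the smallest p against wild type, and per member the 3 genes most like it by Spearman's rho; Xist, Tsix, Y-linked genes and unnamed gene models were left out of the last. A gene that the rule picked from a pathway list is not reported here. Alternatives were DESeq2 (version 1.42.0), limma (version 3.58.1) on log2(FPKM + 1) with and without a mean FPKM filter of 0.5 and on log2(FPKM + 0.1) with it, RLE scaling, no filter, robust dispersion, no ID set term, a replicate block, only the groups compared, each ID set alone, the marker score, and each library left out. The fit was tested on simulated data. Libraries within a group differed beyond counting noise (lowest chi-square per degree of freedom 5.20, between haploinsufficient replicates 1 and 2). Depth per library and the limit of 3 counts are given with the results; that limit covers counting error only, whereas the 95% intervals of fold changes come from the edgeR fit and take in the variation among libraries.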

Additional observations from a re-analysis of the deposited data

Results flagged for a closer look

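In 30 sets of 1 gene in 1 group, the highest or lowest library was compared with its nearest neighbour relative to the range of the set, by Dixon's criterion at 95%. It stood apart in 2 sets, where chance gives about 1.5. Wild-type replicate 4 had the highest Crabp1 level of its group, a log2 CPM of 4.33, and is also the wild-type library with a score of other-tissue markers above 1.5 (1.73). Wild-type replicate 7 had the lowest Crabp2 level, a log2 CPM of -2.85 at 0 counts, and is the library with the lowest score (-1.08). Whether the other tissues have a part in these values was not tested.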

How the results depend on the processing

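Counts of called genes for triple-knockout against wild-type, haploinsufficient against wild-type and triple-knockout against haploinsufficient hearts were 164, 318 and 55. They were 291, 560 and 270 with DESeq2, 50, 20 and 176 in library IDs 1 to 12 alone, 52, 183 and 1 in IDs 19 to 30 alone, and 70, 111 and 0 without the high-score libraries. With the score as a term the last 2 were 169 and 153. With only the groups compared the first was 296 and the last 1. The last was 88 without the filter on low counts. With limma the last was 0 in each of its 3 forms, and without a filter the first was 96. Leaving out 1 library gave 107 to 184, 152 to 614 and 10 to 414; the ends came from triple-knockout replicate 3, haploinsufficient replicates 2 and 3 and wild-type replicate 8. Genes called for a difference between the ID sets were 20 for triple-knockout and 0 for haploinsufficient hearts (1019 at an unadjusted p under 0.05). They were 63 and 2 with DESeq2, 81 and 1 without a filter, and 5 for triple-knockout hearts with robust dispersion. The cause of these shifts was not tested beyond what fewer libraries or other genes tested bring with them.

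The labels do not tie replicate numbers between groups. Same-numbered libraries had correlated deviations over 0.1 in 1 of 7, 1 of 8 and 3 of 7 pairs. The highest correlation, 0.47, was in triple-knockout against haploinsufficient hearts, where these values do not settle whether libraries were paired. With the replicate block the counts were 145, 217 and 16, and Aldh1a7 and Cyp26b1 were at 0.25 and -0.017 on the log2 scale for triple-knockout against haploinsufficient hearts.

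Among single genes, the log2 fold change turned its sign mostly where it was near 0, and the cause was not tested. For triple-knockout against wild-type hearts, leaving out the high-score libraries gave -0.50 for Aldh1a2, -0.19 for Rdh10 and -0.047 for Cyp26b1, and the score as a term -0.40, -0.50 and -0.10 for these, -0.33 for Adh1 and -0.0053 for Rarb. For haploinsufficient against wild-type hearts, leaving them out gave -0.074 for Aldh1a2, -0.18 for Rdh10, -0.16 for Cyp26b1 and -0.066 for Crabp1, and the score as a term -0.33, -0.74, -0.13 and -0.86 for these and -0.64 for Crabp2. For triple-knockout against haploinsufficient hearts, leaving them out gave 0.83 for Aldh1a7 and -0.012 for Rdh10, and the score as a term 0.57 for Aldh1a7.

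IDs 1 to 12 alone gave -0.069 for Rarb in triple-knockout against wild-type hearts, 0.17 for Aldh1a3, -0.42 for Crabp1, -0.092 for Crabp2 and -0.43 for Rdh10 in haploinsufficient against wild-type hearts, and 0.27 for Aldh1a2 and 0.56 for Aldh1a7 between the GRK-deficient groups. IDs 19 to 30 alone gave -0.11 for Aldh1a1, -0.25 for Aldh1a2 and -0.34 for Cyp26b1 in triple-knockout and -0.00039 for Cyp26b1 in haploinsufficient against wild-type hearts, and -0.018 for Crabp2, -0.34 for Cyp26b1 and -0.47 for Rdh10 between the GRK-deficient groups. In that last comparison Cyp26b1 was at -0.0061 with DESeq2, -0.0015 with RLE scaling and -0.0080 with only the groups compared. Limma on log2(FPKM + 1), with and without a filter, gave 0.019 for Aldh1a2 and 0.026 for Aldh1a7 there and -0.030 for Cyp26b1 in haploinsufficient against wild-type hearts; with 0.1 in place of 1 these were 0.018, 0.23 and -0.045, and Rdh10 in haploinsufficient hearts was at -0.0075.

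Leaving out 1 library gave, for triple-knockout against wild-type hearts, -0.095 to 0.18 for Aldh1a2, -0.075 to 0.10 for Cyp26b1 and -0.022 to 0.054 for Rarb. For haploinsufficient against wild-type hearts the ranges were -0.041 to 0.27 for Aldh1a2, -0.065 to 0.11 for Cyp26b1 and -0.11 to 0.37 for Rdh10. Between the GRK-deficient groups they were -0.23 to 0.091 for Aldh1a2, -0.76 to 0.53 for Aldh1a7, -0.099 to 0.084 for Cyp26b1 and -0.098 to 0.40 for Rdh10. In haploinsufficient against wild-type hearts with only those groups, Aldh1a3 and Aldh1a7 did not pass the filter and have no value. Where Aldh1a7, Aldh1a3 or Crabp2 had 0 counts in a library, depth sets only an upper limit on its level.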
